A study of Mus musculus with 101 samples.

Results

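Plagl1, Grb10, Peg3 and Impact are imprinted genes, each with a control region that receives its methylation in the egg. These 4 regions were followed in 85 columns of values from mouse embryonic stem cell lines, each column counted here as 1 line. They were chosen as the regions of the authors' imprinting category that lie at these genes, which gave 1 region per gene and 4 of the 868 target regions in all. The same regions held 313 of the 7917 single CpGs deposited. Methylation was measured by enzymatic methyl sequencing, in which enzymes rather than bisulfite convert unmethylated cytosines, on DNA captured with a Twist panel of target regions. The lines came from Diversity Outbred mice, a stock bred from several inbred founders, and were cultured in serum/LIF plus 2i, where 2i stands for inhibitors of the kinases MEK and GSK3 that keep such cells naive. No untreated or otherwise cultured group was analysed here, and all titles name the same culture condition. For 16 of the 85 lines there were 2 titles, 1 of them with the suffix WA, whose meaning is not given. The column names do not tell these 2 titles apart. Line names began with B1 (28 lines), B2 (18), B3A (20) or B3B (19). The sources used here do not say what these prefixes mean, nor the genotype of any line. A final N ended the names of 31 columns, 0 of them B2, 6 B1, 16 B3A and 9 B3B, and its meaning is also not given.

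In genomic imprinting, only 1 parental copy of a gene is active, and DNA methylation laid down in the egg or sperm marks which. At a maternally imprinted control region the copy from the egg is methylated and the copy from the sperm is not, so a cell that keeps the mark reads as about 50% methylated. The mark is copied at each cell division, and the zinc finger protein ZFP57 with its partner TRIM28 is known to protect it at many such regions. In mouse embryonic stem cells, culture with 2i is known to lower methylation across the genome, imprinted regions included. Plagl1 encodes a zinc finger transcription factor that restrains cell growth, Peg3 a large zinc finger protein, and Impact a regulator of translation that acts against the kinase GCN2. Grb10 encodes an adaptor that dampens insulin and growth factor signalling.

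All 4 regions overlapped the gene they are named for. Coordinates are those of mm10, and gene names and spans came from RefSeq for GRCm38.p6, which shares them. The Plagl1 region (gene 22634) was chr10:13090485-13091433, which is 949 bp with 53 measured CpGs. It overlapped the first bases of Plagl1 and Hymai, a noncoding RNA gene of the same locus. The Grb10 region (gene 14783) was chr11:12025346-12026947, which is 1602 bp with 136 measured CpGs and lay within the gene. The Peg3 region (gene 18616) was chr7:6729420-6730600, which is 1181 bp with 50 measured CpGs, and overlapped both Peg3 and Usp29, a neighbouring imprinted gene. The Impact region (gene 16210) was chr18:12972743-12974522, which is 1780 bp with 74 measured CpGs, and lay within the gene.

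Exon and intron positions were not used here. No region of another category overlapped these genes or lay within 50 kb of these regions.

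RefSeq promoter windows of GRCm38.p6 overlapped 2 of the 4 regions. The parts outside the annotated genes, with at most 30 bases inside them, are shown to make visible which CpGs stand behind the region values at these starts. Capitals mark the CpGs that were measured, on the plus strand from 5′ to 3′. The Plagl1 window, chr10:13090582-13090861, is 280 bases with 22 CpGs, of which 8 were measured. The Peg3 and Usp29 window, chr7:6730433-6730588, is 156 bases with 6 CpGs, of which 3 were measured.
Plagl1: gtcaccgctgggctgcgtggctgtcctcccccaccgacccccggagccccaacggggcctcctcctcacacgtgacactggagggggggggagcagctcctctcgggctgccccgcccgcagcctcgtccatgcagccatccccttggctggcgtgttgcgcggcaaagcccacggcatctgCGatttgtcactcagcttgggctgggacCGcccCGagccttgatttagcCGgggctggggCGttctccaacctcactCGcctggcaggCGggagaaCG
Peg3 and Usp29: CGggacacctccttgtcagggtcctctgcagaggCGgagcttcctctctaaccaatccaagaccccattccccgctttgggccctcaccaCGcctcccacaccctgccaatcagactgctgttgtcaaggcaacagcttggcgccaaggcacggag

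The 8 Plagl1 CpGs averaged 18.1% ± 12.8 (SD, n = 85 lines), with means of 14.4% to 22.3% for single CpGs. The 3 CpGs of the Peg3 and Usp29 window averaged 19.6% ± 12.7 (SD, n = 85), with means of 16.4% to 22.5%. Over all measured CpGs of the region the mean was 18.6% for Plagl1 and 21.2% for Peg3. The 3 CpGs of the Peg3 and Usp29 window differed from the other Peg3 CpGs by -1.74 points ± 4.99 (SD, n = 85), lower in 64 lines. The hexamer TGCCGC, the core that ZFP57 is known to bind when its CpG is methylated, was searched on both strands. It occurred 1 time in the Plagl1 window, on the minus strand, and 0 times in the Peg3 and Usp29 window. Of 32851 RefSeq promoter windows of 300 bases, 11.6% held it. These windows are longer than the stretches printed here, and their median is 7 CpGs, against 22 in the Plagl1 stretch. The share is therefore not a matched background. The CpG of the Plagl1 match was not among those measured. A match describes letters only, and the windows cover a small part of each region.

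Methylation at all 4 loci ran from close to 0 to near or above the 50% of a kept mark, and between 50 and 58 of the 85 lines lay under 25% at each locus. Plagl1 was lowest at 0.370% in line B3Bd20N, had a median of 18.7% and reached 44.6% in line B2d7. Its mean was 19.7% ± 12.7 (SD, n = 85), and 21 lines lay under 10% and 0 above 50%. Grb10 ran from 0.668% through a median of 19.9% to 56.1%, with a mean of 21.3% ± 13.7 (SD, n = 85). Here 23 lines lay under 10% and 2 above 50%. Peg3 had the highest mean and the fewest lines under 10%. It ran from 0.137% through a median of 21.4% to 44.9%, with a mean of 22.2% ± 12.1 (SD, n = 85), and 15 lines lay under 10% and 0 above 50%. Impact had the lowest mean and the widest spread. It ran from 0.502% through a median of 14.8% to 55.8%, with a mean of 19.1% ± 15.4 (SD, n = 85), and 29 lines lay under 10% and 5 above 50%. The SD was 80.3% of the mean at Impact, against 64.6% at Plagl1 and at Grb10 and 54.8% at Peg3. The lowest value of all 4 loci was in line B3Bd20N, at a mean over the loci of 0.419%. In this line 43 of 53 Plagl1 CpGs, 114 of 136 Grb10 CpGs and 48 of 50 Peg3 CpGs were listed at 0. Read depth is not in the deposited tables, so no counting interval can be given for these low values.

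Over the 787 regions kept for testing, which lacked a value in at most 20% of lines, the median mean was 15.7% and the median SD 11.4 points. The share of these regions with a lower mean than the locus was 55.8% for Plagl1, 58.7% for Grb10, 59.7% for Peg3 and 54.8% for Impact. The loci thus sat near the middle of the panel in level and spread, although a kept imprint would read near 50%.

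Lines that were low at one locus tended to be low at the others. All 4 loci were under 5% in 8 lines, 1 from B2, 2 from B3A and 5 from B3B. They were all under 10% in 14 lines and all under 25% in 45 lines. All 4 were at or above 25% in 19 lines, of which 12 were B1, and all at or above 40% in 3 lines, B1dA5, B1dC17 and B3Bd8. The remaining 21 lines had loci on both sides of 25%. Within a line, the highest and lowest of the 4 loci differed by a median of 8.68 points, from 0.531 points in B3Bd20N to 26.9 points in B3Ad37N. The columns B1dB37 and B1dB37N, whose names differ only in the final letter, gave 22.8% and 26.7% at Plagl1, and 27.5% and 26.4% at Grb10. At Peg3 they gave 29.9% and 26.8%, and at Impact 35.9% and 24.1%. Impact was thus where this pair differed most. Whether the columns share a line is not given, and both were counted among the 85 lines.

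**Figure D1:**
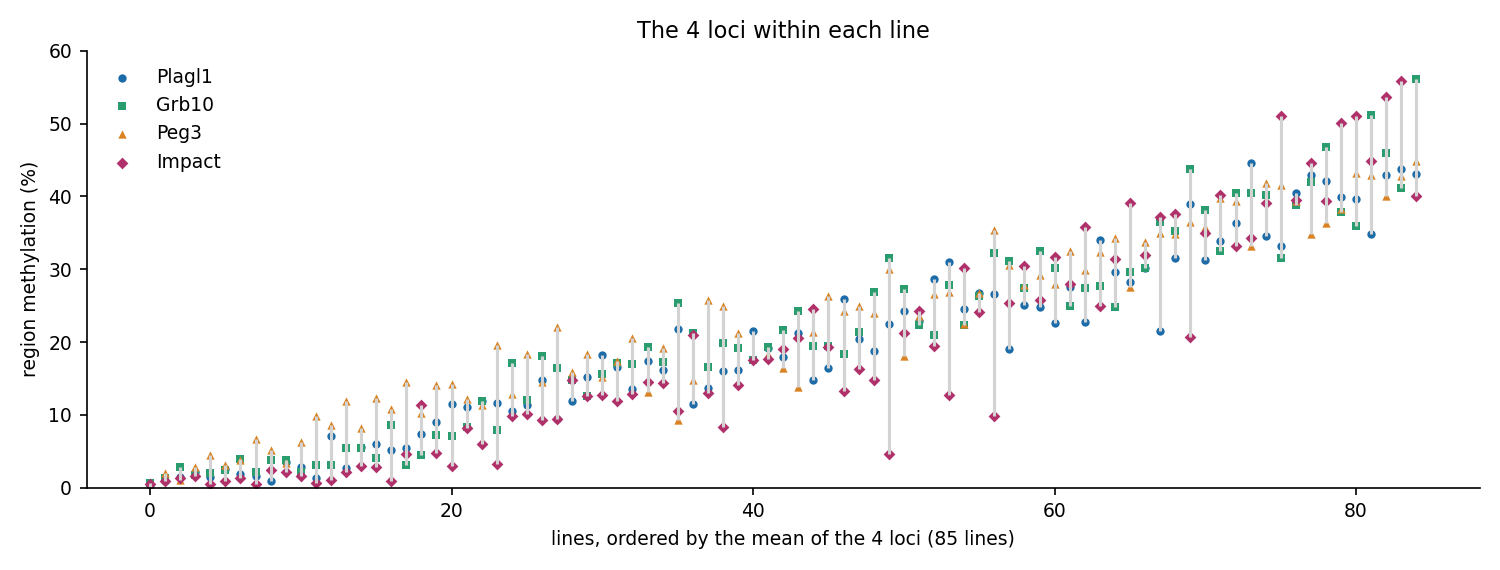
Region methylation (%) of Plagl1, Grb10, Peg3 and Impact in each of 85 lines, with lines on the x axis ordered by the mean of the 4 loci and a grey bar from the lowest to the highest locus. The loci rise together from left to right, and the diamonds of Impact lie below the other 3 markers in many of the lower lines.

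Correlations across lines put numbers on this. Each value of a line comes from the same library, so the 4 loci share its depth and conversion, and 6 pairs were computed. Pearson's r was highest for Grb10 and Plagl1, at 0.941 (Spearman's rho 0.945), followed by Peg3 and Grb10 at 0.919 (rho 0.923) and Peg3 and Plagl1 at 0.917 (rho 0.915). The 3 pairs with Impact were at 0.886 with Plagl1 (rho 0.904), 0.876 with Peg3 (rho 0.885) and 0.873 with Grb10 (rho 0.902). Each r and rho had a permutation p of 1e-05, raw and adjusted over the 6 pairs, the smallest that 100000 resamples can give. With the 2 lines left out that lay farthest from the first locus's median, r lay between 0.868 and 0.917 for the pairs other than Grb10 and Plagl1, where it was 0.946. Within single prefixes r ranged from 0.847 to 0.933 for B1, from 0.726 to 0.918 for B2, from 0.854 to 0.942 among B3A lines and from 0.829 to 0.975 among B3B lines. Without the 2 farthest lines the r of Plagl1 and Impact in B2 was 0.526, against 0.726 with them. In B3B the r of Peg3 and Impact was then 0.638, against 0.829.

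The loci also followed the overall level of their line, taken as its mean over 764 kept regions outside the imprinting category. Pearson's r with this mean was 0.850 for Plagl1 (rho 0.842), 0.847 for Grb10 (rho 0.850), 0.823 for Peg3 (rho 0.826) and 0.791 for Impact (rho 0.808), each with a permutation p of 1e-05, raw and adjusted over 4. Without the 2 farthest lines r was 0.836, 0.831, 0.808 and 0.772. Within B1 r was 0.796 for Plagl1, 0.741 for Grb10, 0.750 for Peg3 and 0.733 for Impact. The B2 lines gave 0.846, 0.915, 0.812 and 0.733 in the same order, those of B3A 0.853, 0.863, 0.866 and 0.713, and those of B3B 0.857, 0.881, 0.869 and 0.856. The B3B values rested in large part on 2 lines, since without the 2 farthest they were 0.563, 0.662, 0.681 and 0.582. In B2 the value of Impact fell in the same way from 0.733 to 0.564. In B3A the value of Impact rose instead, from 0.713 to 0.908 (rho with all 20 lines 0.823). With the mean of 12 other maternally methylated loci, r over all lines was 0.961 for Plagl1, 0.959 for Grb10, 0.953 for Peg3 and 0.917 for Impact (rho 0.961, 0.967, 0.946 and 0.939, permutation p 1e-05 for each).

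**Figure D2:**
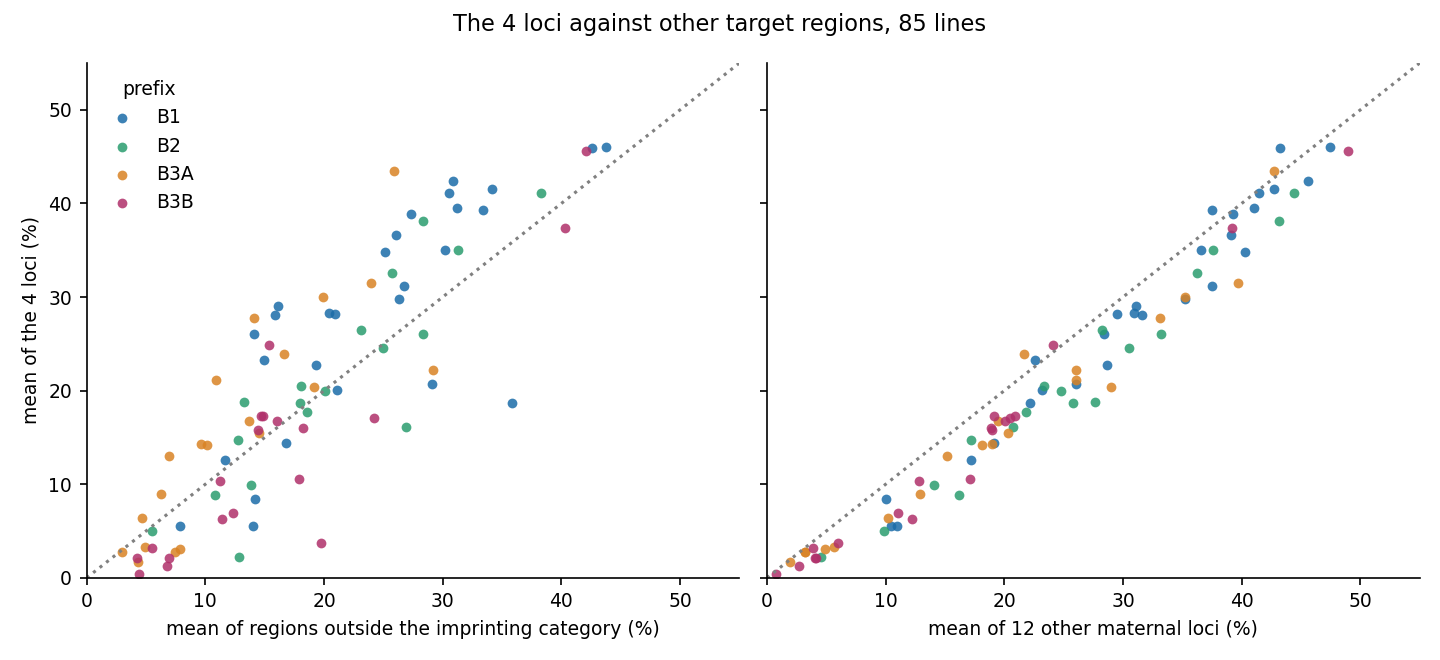
Mean of the 4 loci (%) in each of 85 lines against the mean of 764 regions outside the imprinting category (left) and against the mean of 12 other maternal loci (right), coloured by prefix, with a dotted line of equality. Points scatter widely on the left and lie in a narrow band, mostly just under the line of equality, on the right.

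The loci remained correlated with each other after a linear fit on this overall level was removed. The r of residuals was 0.790 for Grb10 and Plagl1, 0.735 for Peg3 and Grb10, 0.725 for Peg3 and Plagl1, 0.663 for Plagl1 and Impact, 0.648 for Peg3 and Impact and 0.624 for Grb10 and Impact (rho 0.598 to 0.772, permutation p 1e-05 for each, n = 85). Without the 2 farthest lines these r ran from 0.565 to 0.782. Within B1 these residual correlations ran from 0.665 to 0.838 and within B3A from 0.644 to 0.779. In B2 and B3B they did not hold for every pair, with permutation p adjusted over the 6 pairs of a prefix. In B2 (n = 18), 3 pairs did not pass: Peg3 and Plagl1 at r = 0.474 (adjusted permutation p 0.0711), Peg3 and Impact at 0.338 (0.206) and Plagl1 and Impact at 0.293 (0.237). Without the 2 farthest lines these were -0.03, 0.03 and 0.01, and Peg3 and Grb10 fell from 0.742 to 0.368. By Spearman's rho, Peg3 and Grb10 (0.556, adjusted permutation p 0.055) and Grb10 and Plagl1 (0.509, 0.0653) did not pass in B2 either. In B3B (n = 19), 2 pairs did not pass: Peg3 and Grb10 at r = 0.422 (adjusted permutation p 0.0856) and Peg3 and Impact at 0.333 (0.165). Plagl1 and Impact fell there from 0.713 to 0.335 without the 2 farthest lines. By rho, Peg3 and Plagl1 did not pass in B3B either (0.395, adjusted permutation p 0.144).

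The regions most like each locus across lines were picked by r as a description, and again share the line's library. Outside the imprinting category, the Cancer region at Gnas (chr2:174297917-174298416) had r of 0.920 with Plagl1, 0.930 with Grb10 and 0.911 with Peg3, the highest for each. For Impact the highest was the aging_Meer region over Herc3 and Nap1l5, at 0.857, followed by a region in Ctnna3 at 0.855. Both Gnas and Nap1l5 are themselves imprinted. The Herc3 and Nap1l5 region ranked second for Plagl1 (0.915), Grb10 (0.912) and Peg3 (0.883). A region near the interferon gene Ifna13 was the third for Plagl1 at 0.911 and Grb10 at 0.887, and one over Ctag2l1 the third for Peg3 at 0.879. The median r over all regions outside the category was 0.715 for Plagl1, 0.720 for Grb10, 0.686 for Peg3 and 0.669 for Impact. Among imprinting regions of other genes, Nespas was most like Plagl1 (0.945), Grb10 (0.953) and Peg3 (0.922), while Zrsr1 was most like Impact (0.927). The lowest r in the category was with Rasgrf1, which is methylated on the paternal copy, at 0.606, 0.597, 0.524 and 0.485 for Plagl1, Grb10, Peg3 and Impact over 72 lines.

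The 4 loci were compared within lines, with two-sided sign-flip permutation tests adjusted over the 6 pairs. Peg3 was higher than Plagl1 by 2.49 points ± 5.11 (SD, n = 85; adjusted permutation p 0.00024), in 58 lines. Peg3 was higher than Impact by 3.04 points ± 7.52 (adjusted permutation p 0.00123), in 56 lines. Grb10 was higher than Plagl1 by 1.56 points ± 4.65 (adjusted permutation p 0.00516), in 51 lines. Grb10 was higher than Impact by 2.11 points ± 7.50 (adjusted permutation p 0.0163), in 61 lines. In the order of means (Peg3, Grb10, Plagl1, Impact), the first pair of neighbours and the last were not separated by the test. Peg3 and Grb10 differed by 0.925 points (95% interval -0.247 to 2.10; adjusted permutation p 0.146), and Plagl1 and Impact by 0.547 points (-1.001 to 2.09; adjusted permutation p 0.485). Without the columns that end in N, none of the 4 differences above passed, with adjusted permutation p of 0.0654 for the first 3 and 0.160 for Grb10 and Impact. Without the 16 lines that had 2 titles, Grb10 minus Plagl1 was 0.904 points (adjusted permutation p 0.135) and Grb10 minus Impact 1.35 points (0.159), while Peg3 exceeded Grb10 by 2.01 points (adjusted permutation p 0.00222).

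Split by prefix, Peg3 minus Plagl1 was positive in each, at 2.33 points in B1, 0.61 in B2, 4.09 among B3A and 2.82 among B3B lines, and so was Grb10 minus Plagl1, at 1.44, 1.54, 2.05 and 1.27 points. The differences with Impact turned in B1, where Peg3 minus Impact was -1.08 points, Grb10 minus Impact -1.97 and Plagl1 minus Impact -3.41. In B2, B3A and B3B the first was 5.06, 5.97 and 4.09 points and the second 5.99, 3.93 and 2.54. Plagl1 minus Impact was 4.45, 1.88 and 1.27 points there.

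Impact was often the locus farthest below the other 3 within a line. It was the lowest of the 4 loci in 41 lines and the highest in 17, of which 13 were B1. Peg3 was the highest in 36 lines and Grb10 in 23. Impact lay under 50% of the mean of the other 3 in 18 lines, against 3 lines for Plagl1, 2 for Grb10 and 2 for Peg3. In the other direction, Peg3 lay above 1.5 times the mean of the other 3 in 24 lines, Grb10 in 7, and Plagl1 and Impact in 1 each. In 3 lines Impact was under 10% while the other 3 averaged 20% or more, a pattern singled out after the values were seen and met by 0 lines for each other locus. In B3Ad37N Impact was 4.65%, with Plagl1 at 22.5%, Grb10 at 31.6% and Peg3 at 30.1%. In B2d24 it was 9.87%, with the others at 26.6%, 32.2% and 35.4%, and in B3Bd26N it was 8.32%, with the others at 16.1%, 19.9% and 24.9%.

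Where the other 3 loci averaged under 10% (19 lines), Impact averaged 2.14% and lay -2.27 points from them, lower in 17 lines. From 10% to under 20% (25 lines) it lay -3.25 points from them, lower in 20 lines, and from 20% to under 30% (20 lines) -2.67 points, lower in 13. At 30% or more (21 lines) Impact averaged 38.8%, 0.785 points above the others, and was lower in 9 lines. Its SD grew from 2.48 points in the first of these classes to 11.1 points in the last.

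**Figure D3:**
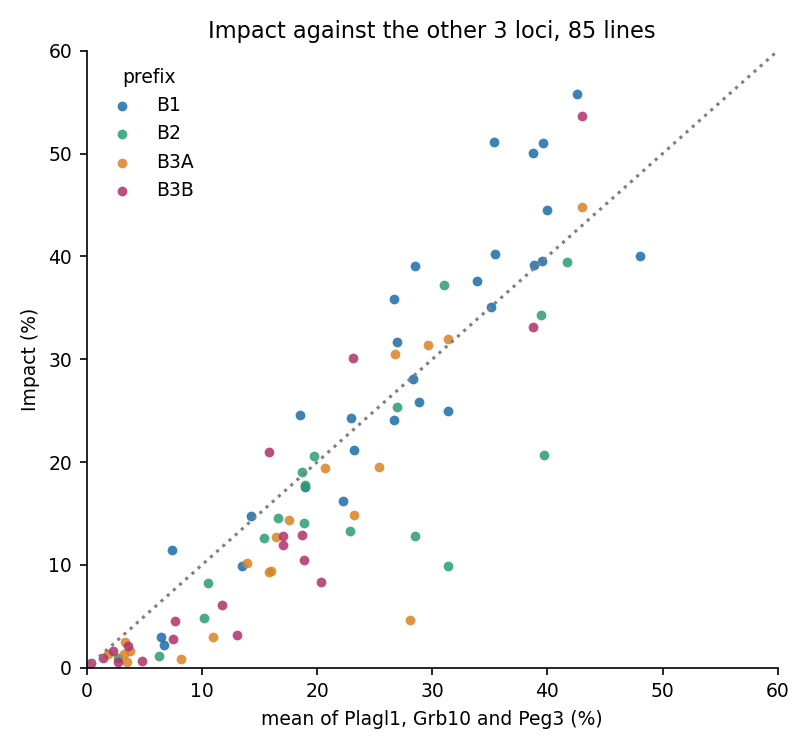
Impact methylation (%) in each of 85 lines against the mean of Plagl1, Grb10 and Peg3 (%), coloured by prefix, with a dotted line of equality. B1 lines lie on both sides of the line (15 of 28 above), while most B2, B3A and B3B lines lie below it.

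Set against the mean of 12 other maternally methylated loci of the panel (23.8%), the 4 loci were lower. The within-line difference was -4.08 points ± 3.61 (SD, n = 85) for Plagl1, which was higher in 10 lines. It was -2.52 points ± 3.92 for Grb10, higher in 19 lines, and -4.63 points ± 6.25 for Impact, higher in 17. Each of these had an adjusted permutation p of 1.25e-05, which rests on the smallest p the resamples can give. For Peg3 it was -1.59 points ± 3.91, higher in 31 lines (adjusted permutation p 0.00027). The Peg3 difference was -0.278 points (adjusted permutation p 0.533, within a range of 4e-05 to 0.728 over 6 alternatives) when Peg13, the locus with the highest mean at 38.2%, was left out. For Plagl1, Grb10 and Impact the difference was then -2.77, -1.20 and -3.31 points, each past the test (largest adjusted permutation p 0.00486). The lowest of the 12 was Gpr1 at 17.2% ± 14.7 (SD, n = 85), below all 4 loci, and Nap1l5 at 19.2% lay beside Impact. Above all 4 loci lay 6 of the 12, namely Nespas (23.1%), Mest (23.6%), Igf2r (26.3%), Snrpn (27.3%), Kcnq1ot1 (27.7%) and Peg13.

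B1 lines had the highest mean methylation at each of the 4 loci and B3B lines the lowest. Values by prefix follow as lowest, median and highest line and then the mean. Plagl1 was 2.69%, 27.2% and 43.8% in B1, with a mean of 26.6% ± 11.8 (SD, n = 28), and 2.56%, 19.2% and 44.6% in B2, with a mean of 21.5% ± 11.7 (n = 18). In B3A it was 0.952%, 15.5% and 34.8%, with a mean of 15.1% ± 10.8 (n = 20), and in B3B 0.370%, 11.6% and 42.9%, with a mean of 12.7% ± 11.9 (n = 19). The ranges of all prefixes overlapped widely. Grb10 was 4.51%, 28.7% and 56.1% in B1, with a mean of 27.99% ± 12.1 (n = 28), and 2.42%, 20.5% and 46.8% in B2, with a mean of 23.02% ± 13.5 (n = 18). In B3A it was 2.16%, 16.9% and 51.2%, with a mean of 17.1% ± 12.6 (n = 20), and in B3B 0.668%, 11.9% and 45.9%, with a mean of 13.998% ± 13.2 (n = 19). The B3A maximum was a single line well above the rest of its prefix.

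Peg3 was 8.26%, 29.6% and 44.9% in B1, with a mean of 28.9% ± 11.02 (SD, n = 28), and 3.09%, 19.9% and 36.5% in B2, with a mean of 22.1% ± 10.5 (n = 18). In B3A it was 1.10%, 18.8% and 43.01%, with a mean of 19.2% ± 11.6 (n = 20), and in B3B 0.137%, 14.5% and 40.1%, with a mean of 15.6% ± 11.6 (n = 19). No B1 line was under 5% at Peg3. Impact was 2.18%, 29.9% and 55.8% in B1, with a mean of 29.96% ± 14.7 (n = 28), and 0.911%, 14.3% and 39.4% in B2, with a mean of 17.03% ± 11.3 (n = 18). In B3A it was 0.528%, 9.83% and 44.8%, with a mean of 13.2% ± 12.8 (n = 20), and in B3B 0.502%, 6.06% and 53.7%, with a mean of 11.5% ± 14.1 (n = 19). Impact was the highest of the 4 loci in B1 and the lowest in B2, B3A and B3B by the mean.

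**Figure D4:**
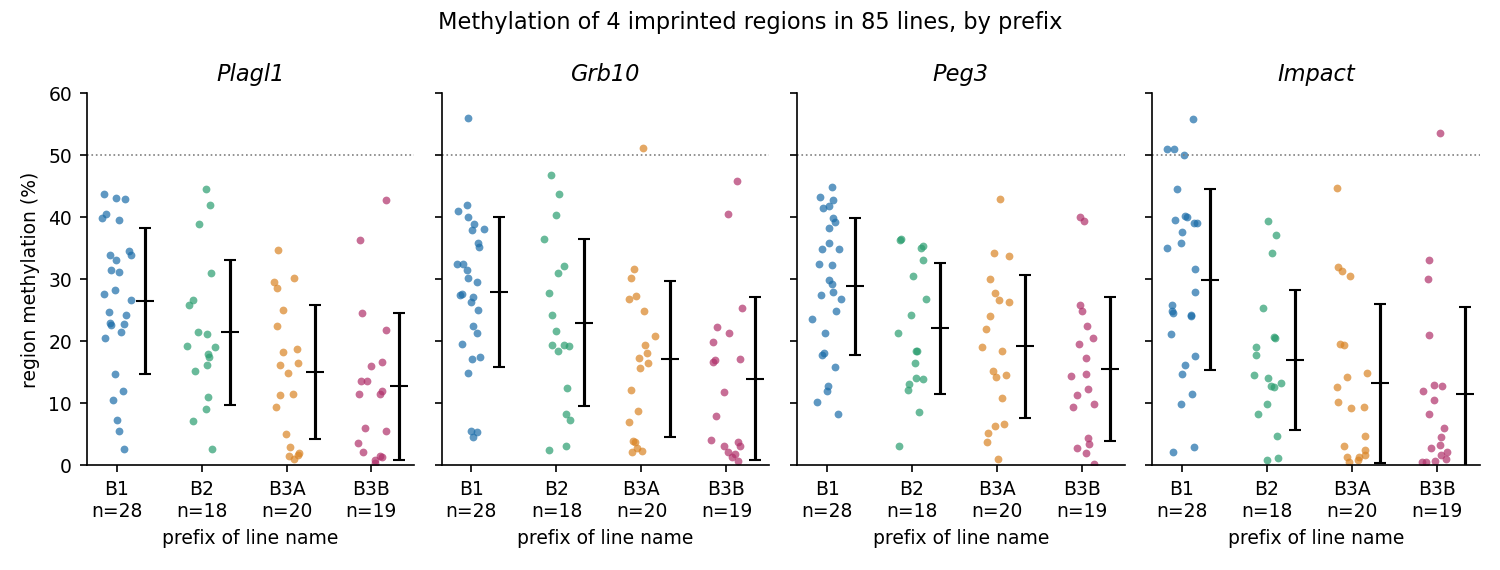
Region methylation (%) of Plagl1, Grb10, Peg3 and Impact in 85 lines by prefix of the line name. Points are lines, the black bar beside each group is the mean ± SD, and the dotted line marks 50%; means fall from B1 to B3B at each locus while the ranges overlap.

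The prefixes were tested with limma's F test on the log2 odds of methylation, adjusted over all 787 kept regions. The adjusted p was 0.000593 for Plagl1, 0.00129 for Grb10, 0.00145 for Peg3 and 0.000187 for Impact, so 4 of 4 passed at 0.05. The background in that test was 81.6% of all regions, so a pass is what most regions of the panel showed. With the line's overall level as a covariate the adjusted p was 0.165, 0.0727, 0.0833 and 0.0687 in the same order, and 0 of 4 passed, against a background of 2.8%. The unadjusted p was under 0.05 at 4 of 4, and at 22.7% of all regions.

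Contrasts between pairs of prefixes, which share the lines of each prefix, were read from the same limma fit. B1 exceeded B3A by 11.5 points at Plagl1, 10.9 at Grb10, 9.70 at Peg3 and 16.8 at Impact, with adjusted p of 0.00268, 0.0086, 0.00889 and 0.000219 (background 85.3%). With the overall level as a covariate 0 of 4 passed in this contrast, as did 0 of all 787 regions (99 at an unadjusted p under 0.05), and the log2 odds difference turned to -0.15 at Plagl1, -0.39 at Grb10 and -0.28 at Peg3, with 0.25 at Impact (adjusted p 0.573 to 0.835 in limma, and 0 of 4 at an unadjusted p under 0.05). Without it these were 1.27, 1.11, 0.96 and 1.88. B1 exceeded B3B by 13.8, 13.99, 13.3 and 18.5 points in the same order, with adjusted p of 0.00218, 0.00248, 0.00248 and 0.00106 (background 67.2%). With the covariate 0 of 4 passed here too, against a background of 0.127% (adjusted p 0.0847 to 0.215 in limma, with 4 of 4 loci and 144 of all 787 regions at an unadjusted p under 0.05), at log2 odds differences of 0.57 to 1.07. B2 and B3A differed at 72.4% of regions but passed at 0 of the 4 loci, with adjusted p of 0.071, 0.198, 0.354 and 0.188 and unadjusted p above 0.05 at each. B2 was higher there by 6.39 points at Plagl1, 5.88 at Grb10, 2.91 at Peg3 and 3.82 at Impact. In the contrast of B2 with B3B 0 of 4 loci passed after adjustment, against a background of 0.254%. An unadjusted p under 0.05 was found at 4 of 4 loci, and at 28.8% of all regions. B1 exceeded B2 by 12.9 points at Impact (unadjusted p 0.0151, adjusted p 0.549 in limma) and by 4.97 to 6.79 points at the other 3, and 0 regions of 787 passed in that contrast (63 at an unadjusted p under 0.05). With the covariate 37 of 787 regions passed there (157 at an unadjusted p under 0.05), with 0 of the 4 loci. Impact then had an unadjusted p of 0.0159 and an adjusted p of 0.138 in limma. With the covariate B2 and B3A differed at 5 regions (69 unadjusted) and B2 and B3B at 3 (90 unadjusted). In each, 0 of the 4 loci passed and 1 had an unadjusted p under 0.05. B3A exceeded B3B by 1.76 to 3.63 points, and without the covariate 0 regions passed (45 at an unadjusted p under 0.05, with 0 of the 4 loci). With the covariate the log2 odds difference of B3A and B3B was 0.81 to 0.98 at the 4 loci, against 0.35 to 0.55 without it. After adjustment 0 of 4 loci and 2 of all 787 regions then passed (adjusted p 0.0817 to 0.314 at the loci in limma). An unadjusted p under 0.05 was found there at 4 of 4 loci, and at 86 of all 787 regions.

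B3B was the lowest prefix at 4 of the 4 loci. Among the 638 other regions called by the F test, B3A was the lowest prefix at 597 and B3B at 39. The mean of the 12 other maternal loci had the order of the 4 loci, at 16.1% in B3B and 19.4% in B3A. This difference in order was not tested, and the values of B3A and B3B at the 4 loci overlapped. The order also turned with the columns. Among those without a final N, where B3A has 4 lines and B3B 10, the B3A means were the lower at each locus. Plagl1 was then 8.86% in B3A and 13.5% in B3B, Grb10 10.1% and 14.1%, Peg3 10.3% and 15.4%, and Impact 6.64% and 13.2%. With a final N (16 and 9 lines) the B3A means were the higher, at 16.7% against 11.9% for Plagl1, 18.9% against 13.8% for Grb10, 21.4% against 15.8% for Peg3 and 14.9% against 9.49% for Impact. B1 had the highest mean at each locus on both sides of this split.

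Of 9 genes of the naive state, 4 had a region in the panel, and 3 of these were kept. Regions at Nanog, Zfp42 and Tbx3, which are active in naive cells, averaged 0.360%, 0.792% and 0.191%. The F test between prefixes passed at 0 of these 3, against the background of 81.6% (smallest adjusted p 0.560 in limma, and 0 at an unadjusted p under 0.05). Values this near 0 leave little room for a difference, so this test says little about the prefixes.

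Of 16 genes of imprint maintenance and methylation machinery, 3 had a region in the panel, and 2 of these were kept. Dnmt3l, the cofactor of the de novo methyltransferases, averaged 28.8% ± 17.1 (SD, n = 85), and its r with the mean of the 4 loci was 0.785. The median of this r over the 764 kept regions outside the imprinting category was 0.722. Tet3, a dioxygenase that oxidises methylcytosine, averaged 56.2% ± 20.6, with an r of 0.877. Both passed the F test between prefixes (adjusted p 0.000467 and 0.00137 in limma, 2 of 2 against the background of 81.6%), and neither did with the overall level as a covariate. Dppa3, which is known to shield maternal methylation in the early embryo, had values in 64 lines, with a mean of 6.26%, and was not tested.

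The prefix differences were not the same size at each locus. The within-line difference between Impact and the mean of the other 3 loci was +2.15 points ± 6.36 (SD) in B1, with Impact higher in 15 of 28 lines. For B2 it was -5.17 points ± 7.11 (3 of 18 higher), for B3A -3.93 ± 5.74 (4 of 20) and for B3B -2.64 ± 5.59 (4 of 19). A permutation test of F over prefix labels gave 6.41 with an adjusted p of 0.002 over the 4 loci. The same test gave an adjusted p of 0.114 for Plagl1, Grb10 and Peg3 each. A linear fit on the overall level of the line, over all lines and without the prefix, was also removed from each locus. The F for Impact was then 4.78 (adjusted permutation p 0.0139). This differs from the limma fits, where the level and the prefix were fitted together. In columns without a final N it was 3.78 (adjusted permutation p 0.0675), with means of +1.78 points for B1 (n = 22), -5.17 for B2 (18), -3.10 for B3A (4) and -1.10 for B3B (10). Over the 5 alternatives tried the adjusted p ran from 0.00084 to 0.0675. In columns with a final N, which B2 lacks, the means were +3.53 in B1 (n = 6), -4.13 in B3A (16) and -4.35 in B3B (9). The signs of B1, B3A and B3B were thus the same on both sides of this split, while B2 was present only without a final N. The part of the line's level in the difference was not tested beyond the fit on the overall level.

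Single CpGs repeated the region pattern. Between prefixes, 50 of 53 Plagl1 CpGs, 116 of 136 Grb10 CpGs, 40 of 50 Peg3 CpGs and 73 of 74 Impact CpGs passed limma's F test adjusted over all 7917 CpGs, against a background of 45.2%. CpGs of a region share reads and are not independent. With the overall level as a covariate 1, 1, 0 and 0 passed, against a background of 0.164%. In columns without a final N the counts were 24, 46, 22 and 61 of the same CpGs, against a background of 22.7% (1801 of 7917).

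Across lines, a CpG usually followed the rest of its region. The median r of a CpG with the mean of the other CpGs was 0.931 in Plagl1, 0.910 in Grb10, 0.888 in Peg3 and 0.942 in Impact. The lowest was 0.524, at the Impact CpG 791 bp from the region start, which was also the 1 Impact CpG that did not pass between prefixes (adjusted p 0.908 in limma). Within a line, the SD over CpGs had a median of 5.39 points in Plagl1, 7.38 in Grb10, 7.33 in Peg3 and 5.67 in Impact.

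Each region had a recurring profile of higher and lower CpGs. In Grb10 the lowest CpG (position 12026439 of chromosome 11) averaged 10.3% ± 10.8 (SD, n = 85) and the highest (12025419) 35.1% ± 20.7, and the first was below the second in 79 of 85 lines. The low CpG lay in a dip from 1000 to 1199 bp after the region start, where 35 CpGs averaged 14.3%, against 22.7% for the other CpGs of the region, lower in 76 of 85 lines. The stretch was picked after the profile was seen. It averaged 17.8% in B1 and 16.7% in B2, against 11.7% in B3A and 9.80% in B3B lines. The CpGs in the first 200 bp, by contrast, averaged 26.9%. In Peg3 the lowest CpG (6729528 of chromosome 7, 108 bp from the region start) averaged 8.93% ± 9.77 and the highest (6729743, at 323 bp) 25.95% ± 14.4, with the first below in 80 lines. In Impact the lowest CpG, at 154 bp, averaged 6.21% ± 7.39 and the highest, at 41 bp, 22.8% ± 17.5, with the first below in 72 lines. Plagl1 had the smallest gap between its lowest and highest CpG, from 12.4% ± 10.4 at 449 bp to 22.9% ± 14.4 at 635 bp, with the first below in 73 lines. By the SD of CpG means, Impact (2.51 points) and Plagl1 (2.57) were the most even, against 4.12 in Peg3 and 4.91 in Grb10. The lowest and highest CpGs were picked from these means, so the line counts describe them and are no test.

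**Figure D5:**
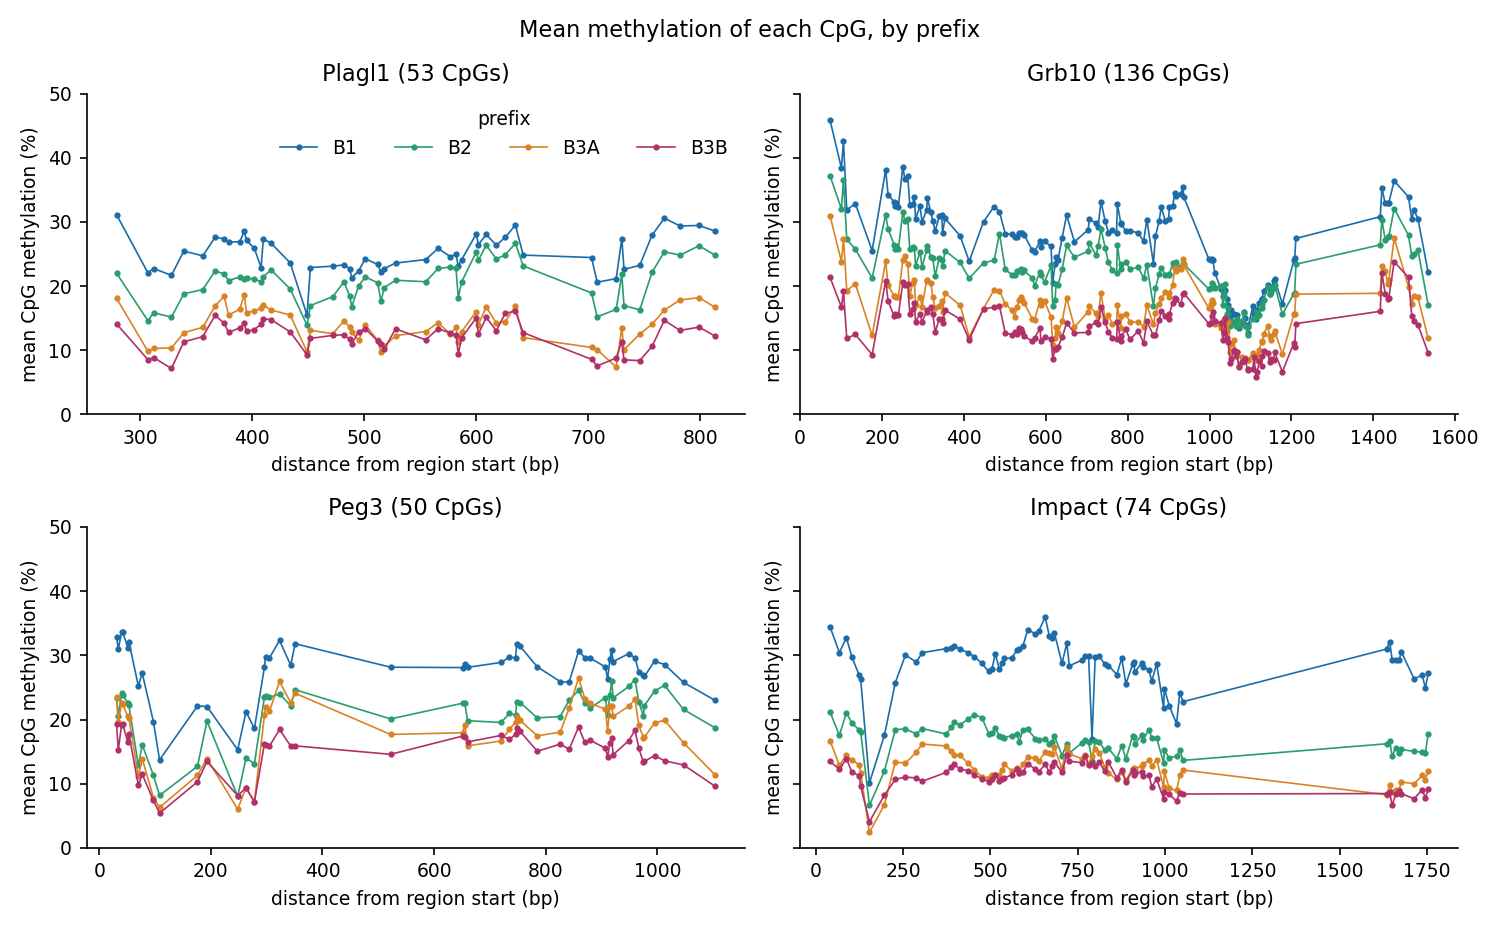
Mean methylation (%) of each measured CpG by distance from the region start (bp), with 1 panel per locus and 1 line per prefix. The prefixes run at different heights and share features, among them a dip at 1000 to 1199 bp in Grb10 and single low CpGs at 108 bp in Peg3 and 154 bp in Impact.

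The profiles of the prefixes were correlated. Pearson's r of CpG means between pairs of prefixes, across CpGs that are not independent, ran from 0.697 to 0.838 in Plagl1, 0.848 to 0.939 in Grb10, 0.851 to 0.924 in Peg3 and 0.573 to 0.830 in Impact.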

How the data were processed

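Per the labels' protocols, genomic DNA from cell pellets went through a NEBNext EM-seq workflow with Twist capture. The submitters' processing notes name Trim Galore 0.6.4, Bismark, Bowtie2 and mm10, without saying what each did or how it was set. The authors deposited methylation fractions from 0 to 1 for 868 regions and for 7917 CpGs in 85 columns, filtered at a coverage of 10 per the table names. They are printed here as percent. The tables hold no read counts, so depth is unknown.

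Columns were matched to 101 titles by name: 44 matched 1 title, and 41 served only as members of their prefix, of which 16 had 2 titles, 24 ended in an N absent from the title and 1 had no title. Separate cultures are not stated, so p-values cover only the spread among columns, which may be technical. Region averages recomputed from the CpGs correlated with the deposited ones at r of 0.993 for Plagl1, 0.999 for Grb10, 0.997 for Peg3 and 0.995 for Impact.

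Prefixes were compared with limma 3.58.1 (R 4.3.3) on the log2 odds of methylation, to both sides of which an offset of 0.01 was added, and p-values were adjusted by Benjamini-Hochberg over 787 regions (those present in 80% of lines or more) or over all CpGs. Other tests were permutation tests with 100000 resamples (NumPy 2.4.6, SciPy 1.17.1), checked on simulated data. Intervals of differences are 95% intervals from Student's distribution over 85 lines. Named genes were the 4 loci, their highest and lowest CpGs, the regions with the highest r, and fixed lists of methylation machinery and naive genes. The members and lists were chosen with earlier results of these data known. Alternatives were the offset, scale, missing values, overall level, columns with a final N and lines with 2 titles.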

Additional observations from a re-analysis of the deposited data

Results flagged for a closer look

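The difference between Impact and the mean of Plagl1, Grb10 and Peg3 within a line differed between prefixes (adjusted permutation p 0.00200 over 4 loci). It was flagged because the effect of the prefix itself differed between loci. Impact lay above the other 3 in B1 by 2.15 points and differed from them by -5.17 points among B2 lines, -3.93 among B3A lines and -2.64 among B3B lines, with SDs of 5.59 to 7.11 points. B1 lines also had the highest means, and Impact lay below the others in lines of low and middle level and 0.785 points above them in the 21 lines at 30% or more. Without columns that end in N the adjusted permutation p was 0.0675, with only 4 B3A lines left. What moves Impact relative to the others was not tested.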

How the results depend on the processing

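The counts called between prefixes depended most on the overall level of a line: with it as a covariate 22 of 787 regions and 13 CpGs passed, against 642 and 3576 without it, and 1801 CpGs passed in columns without a final N. Among the 4 loci, Peg3 minus Grb10 passed with the median of the CpGs (1.25 points, adjusted p 0.0411), on the log2 odds scale (0.19, adjusted p 0.00642) and without lines with 2 titles (2.01 points), and Plagl1 minus Impact on the log2 odds scale (0.23, adjusted p 0.00604). In columns without a final N, differences of 1.88 points (Peg3 minus Plagl1), 2.20 (Peg3 minus Impact), 1.47 (Grb10 minus Plagl1) and 1.78 (Grb10 minus Impact) no longer passed. Without lines with 2 titles, neither did Grb10 minus Plagl1 (0.904 points) and Grb10 minus Impact (1.35). Peg3 against the other maternal loci did not pass with the median over loci (-0.562 points), on the log2 odds scale (-0.0164) or, chosen after seeing the data, without Peg13 (-0.278). The F of Impact relative to the other 3 loci fell to 3.78 in columns without a final N. Over the 5 alternatives of each pair, the adjusted p ran from 0.00222 to 0.718 for Peg3 minus Grb10, from 3e-05 to 0.0654 for Peg3 minus Plagl1 and Peg3 minus Impact, from 0.00026 to 0.135 for Grb10 minus Plagl1, from 4e-05 to 0.160 for Grb10 minus Impact and from 0.00604 to 0.765 for Plagl1 minus Impact. The subsets hold fewer lines, and the cause of these changes was not tested. Beside the 4 loci with the covariate, given above, the other 107 values of these comparisons counted as unchanged. For differences and correlations this means the same direction and side of the threshold, and 0 of them reversed. For F statistics it means the side of the threshold only, and counts of called regions or CpGs have no direction. An unchanged F does not cover the order of the prefixes, which turned for B3A and B3B in columns without a final N, as given above. Also chosen after seeing the data were the removal of the overall level in the F of Impact, the other maternal loci as the x measure and Zdbf2 averaged with Gpr1. CpGs with a value in every line were not run as an alternative, since the CpG table has 0 missing values. Loci were compared within lines, but lines of different prefixes could not be paired, because the labels give no replicate numbers. Nothing ties the numbers in line names, some of which recur under several prefixes, to a shared animal or day. Depth is unknown, so low values carry no floor.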
